A study of Mus musculus with 58 samples.

Results

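Short-term caloric restriction (CR) in young hematopoietic stem cells (HSCs) was examined in 8 of the 58 libraries of the series: 4 RNA-seq libraries labelled YCR and 4 labelled YAL, taken by their titles. YAL HSCs came from young wild type C57BL/6 male mice of 3 to 4 months fed ad lib. YCR HSCs came from young mice of the same strain and sex kept for 4 weeks on CR, with a 20% reduction in the first week and 40% CR in the 3 weeks after it. The study sorted HSCs from bone marrow as c-Kit enriched, lineage negative cells with Sca-1 and c-Kit and with CD150, and without CD34 and Flk2. The study counts mice as the replicates of these groups, and the labels do not tie a library to a mouse, so p-values here measure the spread between libraries. Set beside these were 4 YCRRF libraries, from young mice refed ad lib after the same CR for another 4 weeks, and 8 libraries of old mice of 24 to 26 months, 4 fed ad lib (OAL) and 4 on lifelong 40% CR (OCR). Mice of every one of these groups were wild type.

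HSCs sit mostly out of cycle and renew the blood system for life. Their survival and number depend on cytokines from the niche. Many cytokine receptors of these cells signal through Jak2 to STAT5, which switches on genes that include its own feedback inhibitors of the suppressor of cytokine signalling family (Cish, Socs2), the Pim kinases and D cyclins. Interferons act through other STAT proteins on antiviral genes, immunity-related GTPases and MHC genes. Chaperones of the heat shock family fold new and damaged proteins, and caloric restriction is known to touch insulin and nutrient signalling upstream of many of these systems.

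Counts on genes summed to 17454892 to 35676728 per YAL library and 17194907 to 31941766 per YCR library, so depth overlapped between the groups. Levels are given as CPM, a gene's share of its library's counts scaled with the trimmed mean of M values, which allow a gene to be compared between libraries and not with another gene. The summed level of 18 HSC identity genes was 7350 to 7800 CPM in YAL and 6960 to 7530 CPM in YCR, which overlapped. Of the proteins the sort excludes, Cd3e, Il7r and Ly6g transcripts each lay at or under 2.32 CPM in these 8 libraries, while Cd34 transcripts were at 144 to 189 CPM in YAL and 167 to 184 CPM in YCR. Summed over the 9 genes listed for the sort exclusion, levels were 430 to 502 CPM in YAL and 481 to 529 CPM in YCR. The low genes named here thus do not stand for the whole list. Plasma cell transcripts stood apart in 3 YCR libraries. Their summed level over the 9 listed genes was 219 to 334 CPM in YAL, 241 CPM in YCR replicate 1, and 1730, 2650 and 1140 CPM in YCR replicates 2, 3 and 4. Igha, the immunoglobulin A heavy chain, was at 0 in YCR replicate 1 and at 402, 1130 and 403 CPM in replicates 2, 3 and 4, against at most 1.64 CPM in YAL (log2 fold change 9.83, SE 1.81, edgeR adjusted p = 0.0514). Jchain, which joins secreted immunoglobulin chains, was likewise at 0 in YCR replicate 1 and at 135 to 289 CPM in the other 3 YCR libraries. Of the 8 plasma cell genes tested, 0 were called by edgeR, 5 had an unadjusted p below 0.05 on the higher side, and 3 were called by DESeq2. The summed levels of the other marker lists overlapped between the groups, at of 67.6 to 121 CPM in YAL and 56.2 to 128 CPM in YCR for B cells, 40.6 to 66.8 and 51.3 to 89.9 CPM for T and NK cells, 544 to 1310 and 496 to 881 CPM for granulocytes and monocytes, and 70.6 to 178 and 116 to 169 CPM for erythroid cells. Of the granulocyte and monocyte genes, 12 of 12 tested had a negative log2 fold change (median -1.05), with 0 at an unadjusted p below 0.05 and 0 called by edgeR or DESeq2. Among the refed libraries described further on, YCRRF replicate 3 stood apart, with 4.09% of its counts on mitochondrial genes and 13.2% on its top 10 genes, against 1.09 to 1.67% and 3.49 to 5.01% in the other 11 young libraries.

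More genes were called lower than higher in YCR HSCs. Of 18680 genes tested, 68 (0.364%) were differentially expressed (DEGs) between YCR and YAL HSCs, with an adjusted p under the threshold of 0.05 and a change of more than 1.2-fold. YCR HSCs had 17 DEGs higher (0.091% of the genes tested) and 51 lower (0.273%), and in each of the 68 the 4 YCR libraries lay outside the range of the 4 YAL libraries. Libraries did not overlap for 502 genes higher in YCR (2.69%) and 645 lower (3.45%) among all genes tested. Over all genes tested, 9389 were higher and 9291 lower, and the median log2 fold change was 0.002. At an unadjusted p below 0.05, 736 genes (3.94%) were higher and 999 (5.35%) lower. DESeq2 called 184 genes higher (0.987% of 18633) and 270 lower (1.45%), and all 68 DEGs were among them in the same direction. The edgeR calls depended on the libraries kept. With 1 library left out, between 6 (without YCR replicate 2) and 27 genes (without YAL replicate 1 or YCR replicate 1) passed both thresholds. Slfn2, Socs2, Serpina3g, Ifitm1 and Gimap6 were called in each of these 8 fits, Cish and Hspa8 in 7, Pim2 and Arhgef3 in 6, and Hsp90aa1 in 5, while 27 of the 68 were called in none. In bulk libraries, fewer cells that carry a transcript and less of it per cell cannot be told apart.

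**Figure D1:**
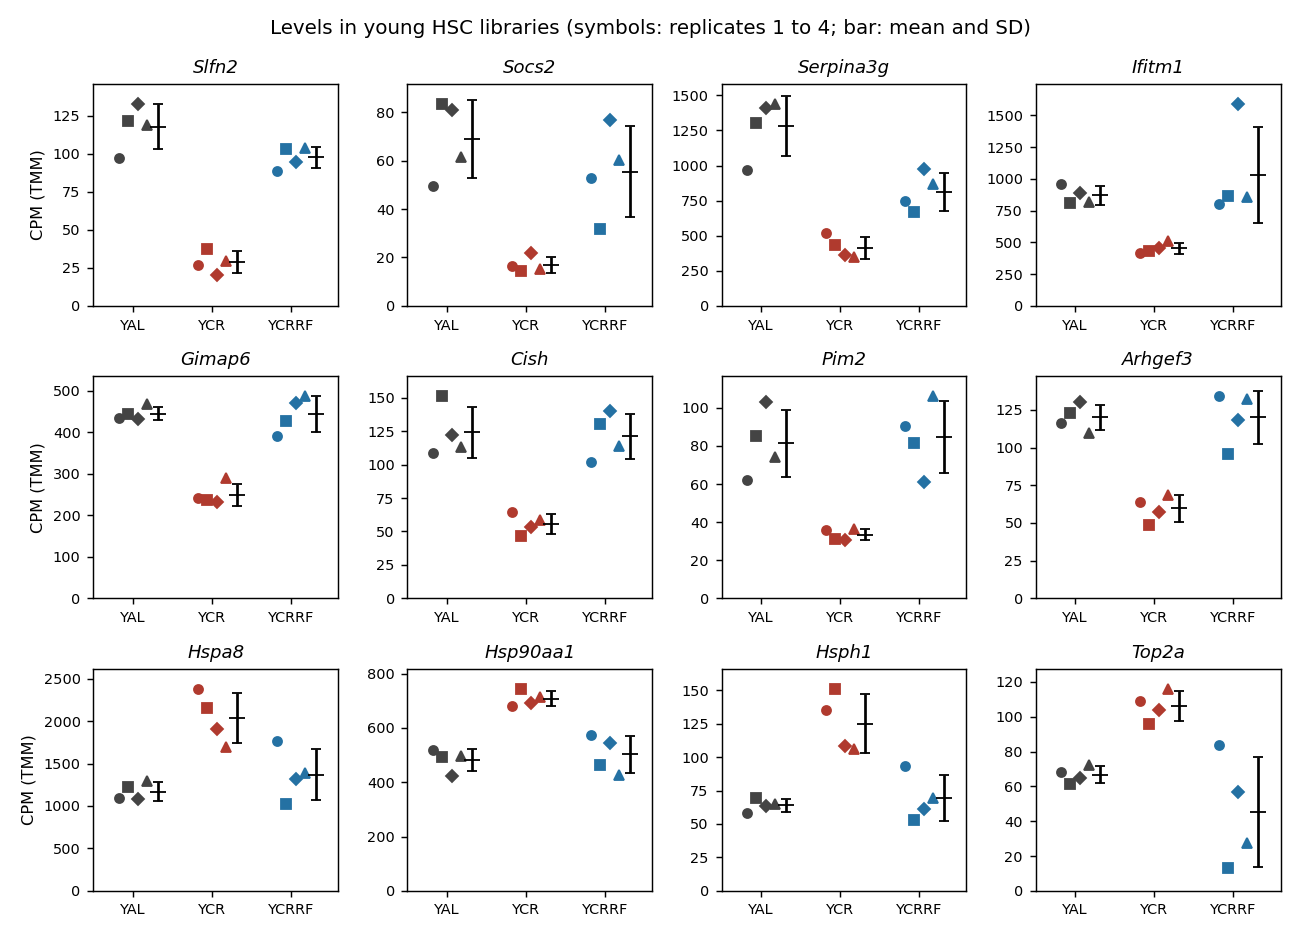
Levels (CPM, linear axis from 0) of 12 DEGs in each YAL, YCR and YCRRF library, 1 symbol per replicate, with the group mean and SD as a bar. For each gene the 4 YCR points lie outside the range of the 4 YAL points, as for Slfn2 at 20.3 to 37.6 CPM in YCR and 97.3 to 133 CPM in YAL.

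The gene lists used here were chosen with earlier results of these data known. Counts over them describe these libraries and are no independent support. Of 15 STAT5 target genes tested, 4 were called lower in YCR HSCs (Socs2, Cish, Pim2 and Mycn) and 0 higher. Socs2, a feedback inhibitor of growth hormone and cytokine receptors (chromosome 10 from 95385362 to 95417180 of mm10), stood at 49.7, 83.5, 81.0 and 61.7 CPM in the YAL libraries and at 16.5, 14.6, 22.0 and 15.1 CPM in the YCR libraries. It fell from 69.0 ± 16.1 to 17.0 ± 3.40 CPM (SD, n = 4 each; a log2 change of -2.02 with an SE of 0.21 and an edgeR adjusted p of 0.0033). Every YCR library held less than the lowest YAL library. Cish, which blocks STAT5 docking on cytokine receptors (chromosome 9 from 107296026 to 107302784), was at 109, 151, 122 and 113 CPM in YAL and at 64.9, 46.9, 53.3 and 58.2 CPM in YCR. Its log2 fold change was -1.15 (SE 0.138, edgeR adjusted p = 0.0101), and the 2 groups did not overlap. Leaving out 1 library at a time ended the call in 1 of 8 fits, at an adjusted p of 0.0505. Pim2, a serine/threonine kinase that promotes survival downstream of cytokines, fell from 62.3 to 103 CPM in YAL to 30.7 to 36.6 CPM in YCR (log2 fold change -1.28, SE 0.164, edgeR adjusted p = 0.0141). Mycn, a MYC family transcription factor that HSCs use beside Myc, fell from 572 ± 110 to 320 ± 40.2 CPM (SD, n = 4 each, log2 fold change -0.84, adjusted p = 0.0312 by edgeR), and that call was lost in 7 of 8 such fits.

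Over the whole list 10 genes were lower and 5 higher, with 6 and 2 at an unadjusted p below 0.05, and the median log2 fold change was -0.40. Summed levels overlapped, at 2040 to 2590 CPM in YAL and 1860 to 2140 CPM in YCR. Members that did not pass lay on both sides: Pim1 had a log2 fold change of -0.73 (unadjusted p = 0.00211) and Socs1 of -0.52, while Ccnd1, a D cyclin, had 0.53 and Bcl6 1.33 (edgeR adjusted p = 0.171, 0.462, 0.0933 and 0.309). Socs3 had -0.34 (SE 0.458) with overlapping libraries. Among 22 receptor, kinase and STAT genes of this pathway 0 were called by edgeR and 0 by DESeq2, 2 had an unadjusted p below 0.05 on each side, and the median was -0.07. Kit had a log2 fold change of 0.18 and Jak1 of -0.24 (unadjusted p = 0.0207 and 0.0324).

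Slfn2, a member of the Schlafen family linked to immune cell quiescence (chromosome 11 from 83065112 to 83070678), stood at 97.3, 122, 133 and 119 CPM in YAL and at 26.7, 37.6, 20.3 and 29.6 CPM in YCR. Its log2 fold change was -2.05 (edgeR adjusted p = 0.00117, SE 0.183), and it shared the largest decrease of any DEG with Fas, and its adjusted p stayed between 0.00224 and 0.00814 with each library left out in turn. Of the other 6 Schlafen genes tested none was called, and Slfn3 lay on the other side at 8.17 to 9.66 CPM in YCR against 2.76 to 6.06 CPM in YAL (edgeR adjusted p = 0.284). Serpina3g, a protease inhibitor of activated lymphocytes and HSCs (chromosome 12 from 104236245 to 104241939), was at 971, 1300, 1410 and 1440 CPM in YAL and 520, 432, 359 and 350 CPM in YCR. It fell by 1.63 on the log2 scale (SE 0.143, edgeR adjusted p = 0.00117). The neighbouring paralog Serpina3f fell by 1.78 (SE 0.264, edgeR adjusted p = 0.0248), from 61.2 ± 18.6 to 17.8 ± 5.22 CPM (SD, n = 4 each). The Serpina3 genes are near-identical copies whose reads the counting could share between them, so their separate values are uncertain.

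Among 47 interferon-stimulated genes tested, 3 were called lower and 0 higher, 14 had an unadjusted p below 0.05 on the lower side and 0 on the higher side, and 41 of 47 had a negative log2 fold change, with a median of -0.23. Ifitm1, a membrane protein that blocks virus entry (chromosome 7 from 140967221 to 140969825), stood at 963, 813, 887 and 814 CPM in YAL and at 414, 432, 452 and 514 CPM in YCR. It fell by 0.94 on the log2 scale (SE 0.083, edgeR adjusted p = 0.00117). Ifi44 fell by 0.88 and Lgals3bp, a secreted glycoprotein, by 0.52 (edgeR adjusted p = 0.0312 and 0.0268). Ifitm3 was at 693 to 822 CPM in YAL and 546 to 637 CPM in YCR, short of the threshold (edgeR adjusted p = 0.0615). DESeq2 called 11 genes of the list lower and 0 higher. Granulocyte and monocyte transcripts also lay lower in YCR, with the median of -1.05 given above, and their part in the levels of these and the following immune genes was not tested.

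Interferon-inducible GTPases, which attack the vacuoles of intracellular microbes, had 2 of 16 tested members called lower and 0 higher. In the list 11 had an unadjusted p below 0.05 on the lower side and 0 on the higher side, and the median log2 fold change was -0.50. Igtp stood at 165, 144, 126 and 139 CPM in YAL and at 97.7, 92.6, 89.9 and 67.5 CPM in YCR (log2 fold change -0.72, edgeR adjusted p = 0.0474). Irgm2 was at 133 to 163 CPM in YAL and 84.1 to 105 CPM in YCR (log2 fold change -0.60, edgeR adjusted p = 0.0474). Exons of Igtp and Irgm2 overlap on the same strand in the annotation, so their counts are not separate evidence. Iigp1 (log2 fold change -0.58, edgeR adjusted p = 0.117) and Gm4951 (-0.81, 0.158) did not pass although their libraries did not overlap. Summed over the list, levels were 1510 to 1740 CPM in YAL and 1170 to 1290 CPM in YCR.

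MHC genes were read by class. Of 11 MHC class II genes 0 were called by edgeR, 6 had an unadjusted p below 0.05 on the lower side and 1 on the higher side, and DESeq2 called 2 lower and 1 higher. H2-Eb1 was at 75.1 to 121 CPM in YAL and 46.2 to 60.3 CPM in YCR, and Cd74, the invariant chain, at 437 to 540 and 327 to 395 CPM (edgeR adjusted p = 0.0805 each). H2-Ob, which restrains peptide loading in B cells, lay the other way at 4.93 to 11.4 and 14.9 to 25.3 CPM (edgeR adjusted p = 0.175). For the 17 class I presentation genes 0 were called by edgeR and 0 by DESeq2, 0 had an unadjusted p below 0.05 on either side, and the median log2 fold change was -0.04. The difference between the class I and class II lists was not tested.

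The Gimap GTPases, which support lymphocyte survival and lie in a cluster on chromosome 6, had 3 of 8 tested members called lower. Gimap6 stood at 435, 445, 432 and 468 CPM in YAL and at 243, 237, 232 and 289 CPM in YCR. It fell by 0.83 on the log2 scale (SE 0.0825, edgeR adjusted p = 0.00259), and both groups were tight around their means of 445 ± 16.2 and 250 ± 26.4 CPM (SD, n = 4 each). Gimap5 fell by 0.74 and Gimap1 by 0.40 (edgeR adjusted p = 0.0493 and 0.0474), both lost in every fit with a library left out. DESeq2 called 6 of the 8 lower, 7 had an unadjusted p below 0.05 on the lower side, and the median was -0.68. Gimap7, at 0.914 to 5.59 CPM in YCR, was the member without such a difference (log2 fold change -0.04, SE 0.604). Exons of Gimap1 and Gimap5 also belong to a read-through gene model, Gm28053.

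Fas, Ctsc, Pik3cd and Arhgef3 were further lower DEGs. Fas, the death receptor, stood at 6.96, 14.0, 9.68 and 9.54 CPM in YAL and 2.69, 1.88, 2.45 and 2.69 CPM in YCR (log2 fold change -2.05, SE 0.321, edgeR adjusted p = 0.0281). Among 20 p53 target and apoptosis genes tested it was the single DEG. Ctsc, the lysosomal protease that activates granule serine proteases, fell by 0.76 (edgeR adjusted p = 0.0215). Pik3cd, the catalytic subunit p110 delta of leukocyte phosphoinositide 3-kinase, fell from 212 to 355 CPM in YAL to 120 to 162 CPM in YCR (log2 fold change -1.02, SE 0.149, edgeR adjusted p = 0.0248). Arhgef3, a guanine nucleotide exchange factor, fell from 120 ± 8.36 to 59.7 ± 8.72 CPM (SD, n = 4 each; a log2 change of -1.005 with an SE of 0.123 and an edgeR adjusted p of 0.0101).

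**Figure D2:**
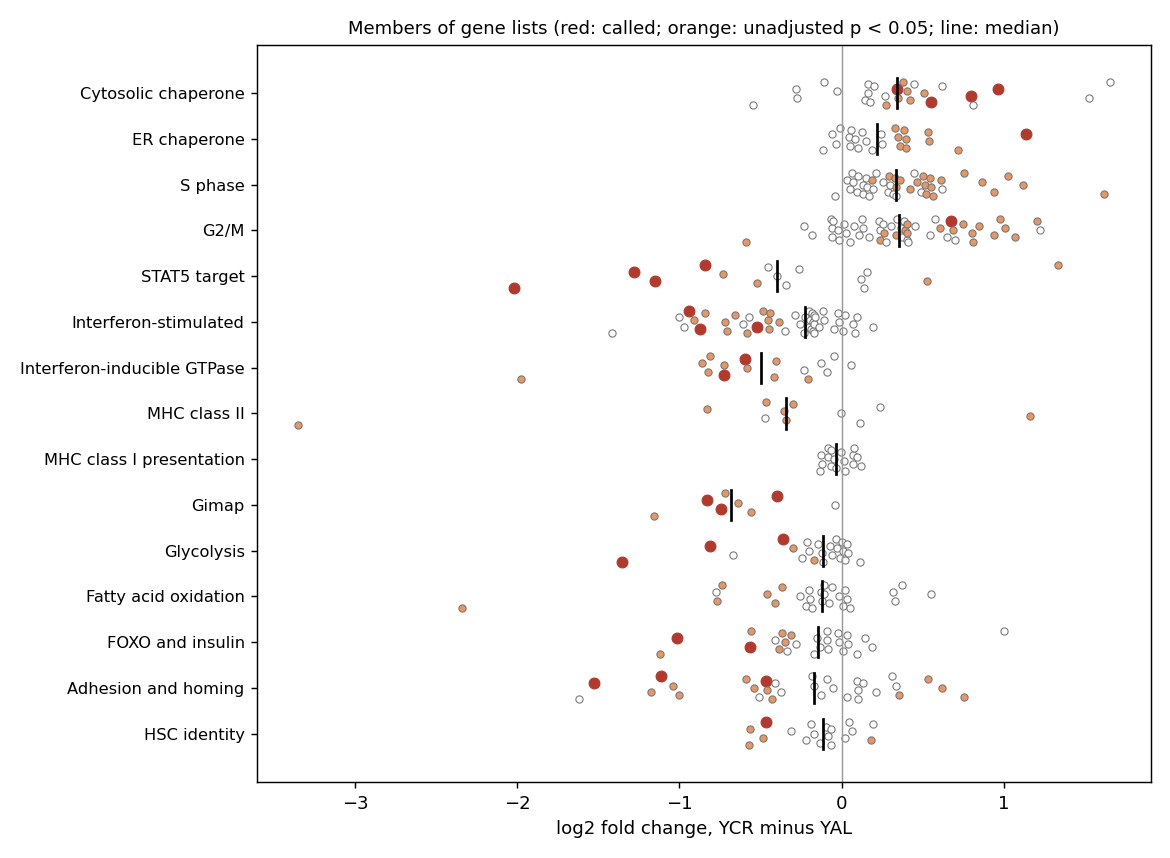
Log2 fold changes (YCR minus YAL) of the tested members of 15 gene lists, 1 point per gene, with DEGs in red, other genes with an unadjusted p below 0.05 in orange, and the list median as a line. The medians run from -0.68 for Gimap genes to 0.35 for G2/M genes, and MHC class I genes lie close to 0.

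Because several of these genes are known targets of STAT or interferon-regulated factors, their start sites were searched for the letters these factors bind. Promoter windows of RefSeq (GRCm38.p6, 250 bases before to 50 after a start site) were found for 53 of the 68 DEGs and for 11989 of the tested genes, some with several windows. Windows were not used for Socs2, Ndnf, Clu, Sox18, Gm17041, Rbm3, Esam, Aldh2, Hsp90ab1, H2afz, Hsp90aa1, Abcg1, Hspa8, Hist1h2bc and Gm48582. The STAT motif TTCNNNGAA, which reads the same on both strands, was in the windows of 11 of 43 lower DEGs (25.6%) and 1 of 10 higher DEGs (10%), against 982 of 11989 tested genes (8.19%). Counted by window it was in 20.7% of 58 windows of lower DEGs and 6.86% of all 15225. The lower DEGs with a match were Fas, Serpina3f, Serpina3g, Aldoc, Palld, Cish, Gimap6, Ctsc, Igtp, Irgm2 and Ubb. The interferon-stimulated response element, GAAA and GAAA with 2 free bases between them on either strand, was in 3 of 43 lower DEGs (6.98%) and 3.80% of tested genes, and the E box CACGTG in 5 of 43 (11.6%) and 11.2%. Serpina3f with Serpina3g, and Igtp with Irgm2, are the related pairs described above, so these matches are not independent of each other. Igtp and Irgm2, with Coro2a, also made up the 3 genes with the response element. A match of letters is no measure of binding, and no test was made.

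The windows of 3 lower DEGs are shown because they hold these letters near the start site. Each runs from 250 bases before to 30 after the start site, 5′ to 3′ on the strand of the gene, from RefSeq on GRCm38.p6. Capitals mark STAT matches, and in Igtp also the response element, which begins 2 bases after the STAT match. Cish lies on the plus strand at chr9:107296409-107296688, Serpina3g on the plus strand at chr12:104235897-104236176 and Igtp on the plus strand at chr11:58199306-58199585.
Cish: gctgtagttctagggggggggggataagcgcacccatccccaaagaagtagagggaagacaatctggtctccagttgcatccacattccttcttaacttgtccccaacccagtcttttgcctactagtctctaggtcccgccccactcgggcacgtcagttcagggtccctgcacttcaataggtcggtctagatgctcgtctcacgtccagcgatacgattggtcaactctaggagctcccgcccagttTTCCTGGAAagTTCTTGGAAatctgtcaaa
Serpina3g: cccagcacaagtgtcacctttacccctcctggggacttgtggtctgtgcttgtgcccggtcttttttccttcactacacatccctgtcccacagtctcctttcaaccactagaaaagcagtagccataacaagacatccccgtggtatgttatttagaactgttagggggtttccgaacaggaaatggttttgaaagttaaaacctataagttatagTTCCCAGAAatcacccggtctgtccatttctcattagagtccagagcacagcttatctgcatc
Igtp: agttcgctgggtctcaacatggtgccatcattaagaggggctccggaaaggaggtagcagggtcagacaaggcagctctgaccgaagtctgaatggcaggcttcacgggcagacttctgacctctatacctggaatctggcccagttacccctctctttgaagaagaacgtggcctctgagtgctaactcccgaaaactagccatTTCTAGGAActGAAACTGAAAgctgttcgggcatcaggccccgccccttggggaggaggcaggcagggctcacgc
Cish carried 2 matches, at and 11 bases after its start site, and Serpina3g 1 match that begins 33 bases before it.

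Of 26 cytosolic chaperone genes tested, 4 were called higher in YCR HSCs (Hspa8, Hsp90aa1, Hsph1 and Hsp90ab1) and 0 lower. Hspa8, the constitutive Hsc70 (chromosome 9 from 40800984 to 40810087), stood at 1090, 1220, 1080 and 1300 CPM in YAL and at 2380, 2160, 1910 and 1700 CPM in YCR. It rose by 0.80 on the log2 scale (edgeR adjusted p = 0.0101, SE 0.0965). Hsp90aa1, the inducible form of cytosolic Hsp90, was at 518, 492, 424 and 498 CPM in YAL and at 681, 744, 691 and 715 CPM in YCR (log2 fold change 0.55, SE 0.073, edgeR adjusted p = 0.0149). Hsph1, an Hsp110 nucleotide exchange factor of Hsp70, went from 64.0 ± 4.73 to 125 ± 21.9 CPM (SD, n = 4 each, log2 fold change 0.97, edgeR adjusted p = 0.0169). Hsp90ab1, the constitutive Hsp90, rose by 0.34 (SE 0.0549, edgeR adjusted p = 0.0312). Over the list 21 genes were higher and 5 lower, 10 had an unadjusted p below 0.05 on the higher side and 0 on the lower side, and the list median was 0.34. Summed levels of the list were 5300 to 5590 CPM in YAL and 7040 to 7940 CPM in YCR.

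Plasma cell transcripts moved with the groups in 3 of the 4 YCR libraries. YCR replicate 1 held 241 CPM of them, within the YAL range. It had the highest Hspa8 of the 8 libraries and the highest summed chaperone level, 7940 CPM. It also had the lowest Hsp90aa1 (681 CPM against 691 to 744) and Hsp90ab1 (1890 against 1930 to 2140) of the YCR libraries. Set alone against YAL it gave 0 calls by edgeR, with log2 fold changes of 1.02 for Hspa8, 0.50 for Hsp90aa1, 1.08 for Hsph1 and 0.27 for Hsp90ab1 (edgeR adjusted p = 0.0907, 0.467, 0.195 and 0.629), and 1636 genes of all tested had an unadjusted p below 0.05. Chaperones of the endoplasmic reticulum (ER) are plentiful in plasma cells. The part of plasma cell transcripts in the levels of cytosolic or ER chaperones was not tested. Sdf2l1, an ER co-chaperone (chromosome 16 from 17130138 to 17132383), stood at 21.9, 13.2, 15.3 and 16.2 CPM in YAL and 32.5, 40.0, 33.7 and 39.6 CPM in YCR (log2 fold change 1.14, SE 0.197, edgeR adjusted p = 0.0451). It was the 1 DEG among 24 ER chaperone genes tested, of which 10 had an unadjusted p below 0.05 on the higher side and 0 on the lower side (median 0.22). Hsp90b1, the ER form of Hsp90, was at 263 to 375 CPM in YAL and 427 to 468 CPM in YCR, with 427 in YCR replicate 1 (edgeR adjusted p = 0.0757). The summed ER list was 5370 CPM in that library, above the YAL range of 4550 to 5140 CPM and under the 5530 to 5550 CPM of the other 3 YCR libraries.

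**Figure D3:**
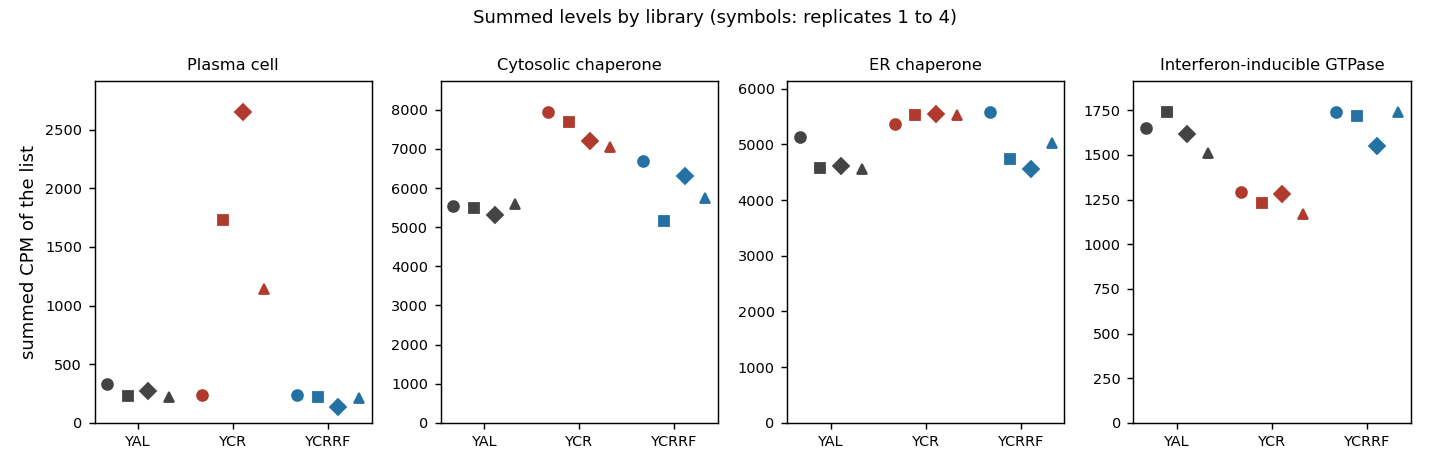
Summed CPM of 4 gene lists in each YAL, YCR and YCRRF library, 1 symbol per replicate, linear axes from 0. YCR replicate 1 lies at 241 CPM for plasma cell transcripts and at 7940 CPM for cytosolic chaperones, where YAL libraries reach 334 and 5590 CPM.

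In the heat shock element, GAA and TTC blocks alternate with 2 free bases between them. It was in the windows of 68 of 11989 tested genes (0.567%). Of the 53 DEGs with a window, 2 had it, Hsph1 and the lower gene Coro2a. Hspa8, Hsp90aa1 and Hsp90ab1 had no window and were not searched. The Hsph1 window is shown because its match, in capitals, lies 15 bases after a start site. It was read from the minus strand at chr5:149636286-149636565, 250 bases before to 30 after that site.
Hsph1: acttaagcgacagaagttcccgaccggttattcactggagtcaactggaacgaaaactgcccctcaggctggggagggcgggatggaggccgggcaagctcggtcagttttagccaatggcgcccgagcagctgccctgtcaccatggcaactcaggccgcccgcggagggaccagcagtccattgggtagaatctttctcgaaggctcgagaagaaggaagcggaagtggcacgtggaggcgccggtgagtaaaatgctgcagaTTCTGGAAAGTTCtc

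Genes of cell division lay mostly on the higher side, with few calls. Top2a, topoisomerase II alpha of dividing cells (chromosome 11 from 98992943 to 99024189), stood at 68.2, 61.2, 64.7 and 72.4 CPM in YAL and at 109, 95.8, 104 and 116 CPM in YCR (log2 fold change 0.68, SE 0.107, edgeR adjusted p = 0.0288). Its adjusted p was 0.0654 to 0.105 with 1 library left out. H2afz, a histone H2A variant, and Hist1h2bc, a histone H2B gene, are in neither of the division lists and rose by 0.47 and 1.28 (edgeR adjusted p = 0.0474 and 0.0248). Hist1h2bc lay at 15.7 to 20.4 CPM in YAL and 31.6 to 51.8 CPM in YCR. Of 42 S phase genes 41 were higher in YCR, 0 were called by edgeR and 7 by DESeq2, and 20 had an unadjusted p below 0.05 on the higher side against 0 on the lower side. For 52 G2/M genes the counts were 43 higher, 1 called by edgeR, 7 by DESeq2, 18 with an unadjusted p below 0.05 on the higher side and 1 on the lower side. Uhrf1, which carries DNA methylation through replication, was at 56.2 to 86.3 CPM in YAL and 110 to 123 CPM in YCR (edgeR adjusted p = 0.107). Mki67, which encodes Ki-67, was at 8.19 to 37.5 CPM in YAL and 47.1 to 85.8 CPM in YCR (log2 fold change 1.07, SE 0.395, edgeR adjusted p = 0.405).

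Transcription factors moved in both directions, with 2 called higher and 2 lower among 39 tested. Runx3 stood at 13.3, 12.4, 12.9 and 11.5 CPM in YAL and at 29.8, 28.7, 43.2 and 22.3 CPM in YCR (log2 fold change 1.31, SE 0.222, edgeR adjusted p = 0.0408). Gfi1b, a repressor needed for erythroid and megakaryocytic cells, rose from 108 ± 3.95 to 186 ± 40.8 CPM (SD, n = 4 each, log2 fold change 0.79, edgeR adjusted p = 0.0474). Sox18, an endothelial SOX factor, fell by 1.33 (edgeR adjusted p = 0.0474), and Mycn was described above. Megakaryocyte and platelet genes lay mostly on the higher side, with 13 of 16 tested higher, 3 lower and a median of 0.42. Gfi1b was the 1 called by edgeR, and DESeq2 called 4 higher and 2 lower. At an unadjusted p below 0.05 were 6 on the higher side and 2 on the lower side. Itga2b, the platelet integrin CD41, was at 97.1 to 145 CPM in YAL and 145 to 242 CPM in YCR, while Vwf, which marks platelet-biased HSCs, was at 308 to 386 and 159 to 291 CPM (edgeR adjusted p = 0.101 and 0.0817). Among 18 lymphoid priming genes 0 were called by edgeR and 1 higher by DESeq2, 5 had an unadjusted p below 0.05 on the higher side and 1 on the lower side, and the median was 0.16. Their summed levels did not overlap, at 345 to 390 CPM in YAL and 429 to 766 CPM in YCR. The part of the plasma cell transcripts of YCR replicates 2 to 4 in these levels was not tested. Flt3, whose product the sort excludes, was at 20.7 to 34.6 and 24.1 to 63.2 CPM (edgeR adjusted p = 0.374).

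Metabolic DEGs were mostly lower, as were DEGs of all kinds (51 of 68). Pkm, the last kinase of glycolysis (chromosome 9 from 59656368 to 59679375), stood at 963, 986, 946 and 976 CPM in YAL and at 775, 759, 721 and 754 CPM in YCR. The decrease was small and tight, by 0.36 on the log2 scale (SE 0.0479, edgeR adjusted p = 0.0149). Aldoc, a fructose bisphosphate aldolase, fell by 1.35 and Pdk1, a kinase that inhibits pyruvate dehydrogenase, by 0.81 (edgeR adjusted p = 0.027 and 0.0456). Of 23 glycolysis genes these 3 were called lower and 0 higher, with a median of -0.11. Pygm, a glycogen phosphorylase, fell by 0.83 (edgeR adjusted p = 0.0379). Fatty acid oxidation had 0 of 27 genes called by edgeR and 3 called lower by DESeq2, with 6 at an unadjusted p below 0.05 on the lower side and 0 on the higher side. Cpt2, which completes carnitine-dependent import into mitochondria, was at 42.2 to 63.9 CPM in YAL and 29.4 to 35.9 CPM in YCR (edgeR adjusted p = 0.103).

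In the insulin and FOXO list, Pik3cd and Txnip were called lower among 26 genes and 8 had an unadjusted p below 0.05 on the lower side against 0 on the higher side. Txnip, a thioredoxin-binding brake on glucose uptake, was at 2010, 2170, 2120 and 2430 CPM in YAL and 1840, 1460, 1370 and 1240 CPM in YCR (log2 fold change -0.57, SE 0.102, edgeR adjusted p = 0.0474). Igfbp4, an IGF-binding protein, was at 220 to 275 CPM in YAL and 149 to 200 CPM in YCR (edgeR adjusted p = 0.065). Trib3, a pseudokinase of the Atf4 response, fell by 1.00 (edgeR adjusted p = 0.0474), while Mthfd2, a mitochondrial folate enzyme of the same list, was at 3.44 to 8.59 CPM in YAL and 13.3 to 19.1 CPM in YCR (edgeR adjusted p = 0.118). The antioxidant list had Aldh2, Prdx4 and Txnip lower of 29 genes. Aldh2, mitochondrial aldehyde dehydrogenase, fell from 767 ± 24.0 to 581 ± 38.8 CPM (SD, n = 4 each, edgeR adjusted p = 0.027), and Prdx4, an ER peroxiredoxin, from 85.4 ± 6.47 to 53.4 ± 4.70 CPM (edgeR adjusted p = 0.0408). For autophagy and mTORC1 genes 0 of 36 were called by edgeR and 2 lower by DESeq2, and 7 had an unadjusted p below 0.05 on the lower side against 0 on the higher side. In lipid metabolism Abcg1, a cholesterol exporter, rose by 0.68 (edgeR adjusted p = 0.027), and Scd2, a fatty acid desaturase, missed the threshold at 244 to 319 CPM in YAL and 388 to 504 CPM in YCR (edgeR adjusted p = 0.0518).

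The cold-inducible RNA-binding proteins formed a list of 2. Rbm3 stood at 185, 201, 186 and 168 CPM in YAL and at 136, 112, 106 and 102 CPM in YCR (log2 fold change -0.70, SE 0.104, edgeR adjusted p = 0.0258). Cirbp was at 153 to 225 and 102 to 123 CPM, without passing (log2 fold change -0.64, edgeR adjusted p = 0.0805). Neither pair of ranges overlapped. Klf11, a TGF-beta early response factor, fell from 55.8 ± 3.91 to 22.7 ± 5.08 CPM (SD, n = 4 each; a log2 change of -1.29 with an SE of 0.178 and an edgeR adjusted p of 0.0169). Of 26 TGF-beta and BMP genes it and Neo1, a receptor of netrins and repulsive guidance molecules, were called lower. Klf10, the closest relative of Klf11 on the list, had a log2 fold change of -0.62 (edgeR adjusted p = 0.157). Per2, a clock repressor, was at 20.8 to 37.0 CPM in YAL and 42.9 to 66.0 CPM in YCR (edgeR adjusted p = 0.123), and 0 of 19 clock genes were called by edgeR and 1 higher by DESeq2, with 3 at an unadjusted p below 0.05 on the higher side and 2 on the lower. Neither tool called any of 16 glucocorticoid response genes (3 at an unadjusted p below 0.05 on each side) or of 17 immediate early genes (1 on each side).

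The DEGs among adhesion and surface genes of HSCs were lower. Neo1 stood at 47.1, 58.7, 64.4 and 45.0 CPM in YAL and at 14.0, 16.0, 30.5 and 14.3 CPM in YCR (log2 fold change -1.53, SE 0.264, edgeR adjusted p = 0.0451). Efna1, an ephrin ligand, fell by 1.11 and Esam, an endothelial and HSC adhesion molecule, by 0.46 (edgeR adjusted p = 0.027 and 0.0474). These were the 3 DEGs of the 31 adhesion and homing genes tested. Esam was also the 1 DEG among 18 HSC identity genes, of which 13 were lower and 5 higher. DESeq2 called 4 of them lower and 0 higher. At an unadjusted p below 0.05 were 4 on the lower side and 1, Kit, on the higher side. Mecom, a regulator of HSC quiescence, was at 275 to 397 CPM in YAL and 209 to 242 CPM in YCR (edgeR adjusted p = 0.0954). The genes that the study took from published signatures as rising with HSC age lay mostly below 0 here: 129 of 173 tested were lower in YCR, 52 with an unadjusted p below 0.05 against 7 on the higher side, with a median of -0.29. Of these, Efna1, Neo1 and Clu were DEGs by edgeR and 21 genes were called lower by DESeq2. Clu, the extracellular chaperone clusterin, was at 83.3, 58.1, 79.2 and 78.1 CPM in YAL and at 20.1, 27.3, 38.1 and 30.3 CPM in YCR (log2 fold change -1.37, SE 0.203, edgeR adjusted p = 0.0248). Vwf and Jam2 did not pass (edgeR adjusted p = 0.0817 and 0.0775). In the 39 genes of the signature that falls with age, Socs2 was called lower, 5 had an unadjusted p below 0.05 on each side, and the median was -0.01.

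The receptor and the factor that the study followed in old HSCs were not called in young HSCs. Kdr, the VEGF receptor, was at 21.1, 19.2, 32.4 and 19.6 CPM in YAL and at 12.5, 25.3, 15.3 and 2.78 CPM in YCR (log2 fold change -0.73, SE 0.486, edgeR adjusted p = 0.72). The 2 groups overlapped. Bmpr1a, a BMP receptor, had a log2 fold change of -0.14 (SE 0.43) and Spi1, which encodes PU.1, of 0.17 (SE 0.123, edgeR adjusted p = 0.964 and 0.762).

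The remaining DEGs belonged to none of the gene lists. Pdgfc, a platelet-derived growth factor ligand, fell from 21.2 ± 2.04 to 5.64 ± 1.52 CPM (SD, n = 4 each; a log2 change of -1.91 with an SE of 0.248 and an edgeR adjusted p of 0.0149). Pcyt1b, of phosphatidylcholine synthesis, and Ndnf, a secreted growth factor, fell by 1.88 and 1.86, from means of 10.6 and 10.7 CPM. Further lower DEGs, with log2 fold changes from -1.37 to -0.34, were D630039A03Rik, Palld, Gm17041, Kcnk5, Myof, Coro2a, Mettl27, Padi4, Epb41l4b, Tcp11l2, Hnrnpdl, Col16a1, Ewsr1 and Ubb. They include Padi4, which citrullinates histones, Kcnk5, a potassium channel, and the RNA-binding proteins Hnrnpdl and Ewsr1. Gm17041 is annotated antisense to Cish with overlapping exons, and the counting is not stated to use strand, so its decrease of 1.08 and that of Cish cannot be told apart. Higher DEGs outside the lists, beside H2afz and Hist1h2bc, were Dynll1, a dynein light chain, at 83.7 ± 14.2 and 166 ± 40.4 CPM (SD, n = 4 each), Kcna3, a potassium channel of lymphocytes, Taf4, a subunit of TFIID, and the noncoding or unconfirmed genes I730030J21Rik, 6530402F18Rik and Gm48582. Gm48582 had the largest increase of any DEG, from 2.91 to 13.6 CPM (log2 fold change 2.23, SE 0.347, edgeR adjusted p = 0.027). In all, 18 of the 68 DEGs share exon bases with another annotated gene, 10 of them with a gene on the opposite strand. Hist1h2bc, Ubb, Pkm, H2afz, Hspa8 and the Hsp90 genes have close copies or processed pseudogenes, and how reads that fit several places were counted is not given in the sources used here.

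The DEGs were then followed in old HSCs, where OCR and OAL share no library with the young groups, to see whether lifelong CR moved them the same way. Of the 17 genes higher in YCR, 17 were higher and 12 were called higher in OCR, where 2.54% of all genes tested were called higher. Of the 51 lower genes, 49 were lower and 36 were called lower in OCR, where 3.03% were called lower. Of all genes tested in old HSCs, 5.57% were called in either direction, and none of the 68 was called in the direction opposite to that in young HSCs. These shares are over the 27150 genes tested in old HSCs. The DEGs came from the 18680 genes tested in young HSCs, so the sets differ. Socs2 (log2 fold change -1.37), Slfn2 (-1.31) and Klf11 (-1.43) fell in OCR with edgeR adjusted p of 2.78e-05, 3.77e-05 and 8.36e-10, and Hspa8 rose by 0.54 (edgeR adjusted p = 0.00687). Sdf2l1 rose by 1.81 and Top2a by 1.94 (edgeR adjusted p = 5.80e-08 and 3.61e-12). The log2 fold change of Coro2a in OCR was 0.02, that of Prdx4 0.07, that of Fas -0.35 and that of Igtp -0.16 (edgeR adjusted p = 0.98, 0.799, 0.277 and 0.459).

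Whether the response differed between the old and young comparisons was tested as an interaction, with the 4 groups fitted together. Top2a was the 1 DEG of short-term CR that passed (difference 1.27, old minus young, SE 0.164, edgeR adjusted p = 0.00526), among 9 of 28328 genes tested that did (0.0318%). Neither Slfn2 (difference 0.74, SE 0.35) nor Serpina3g (0.81, SE 0.193) passed (edgeR adjusted p = 0.562 and 0.195), which does not show that they responded alike. The study took old mice from the NIA Aged Rodent Colony and young mice from The Jackson Laboratory. Age, the length of CR and the source of the mice changed together, so they cannot be told apart.

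**Figure D4:**
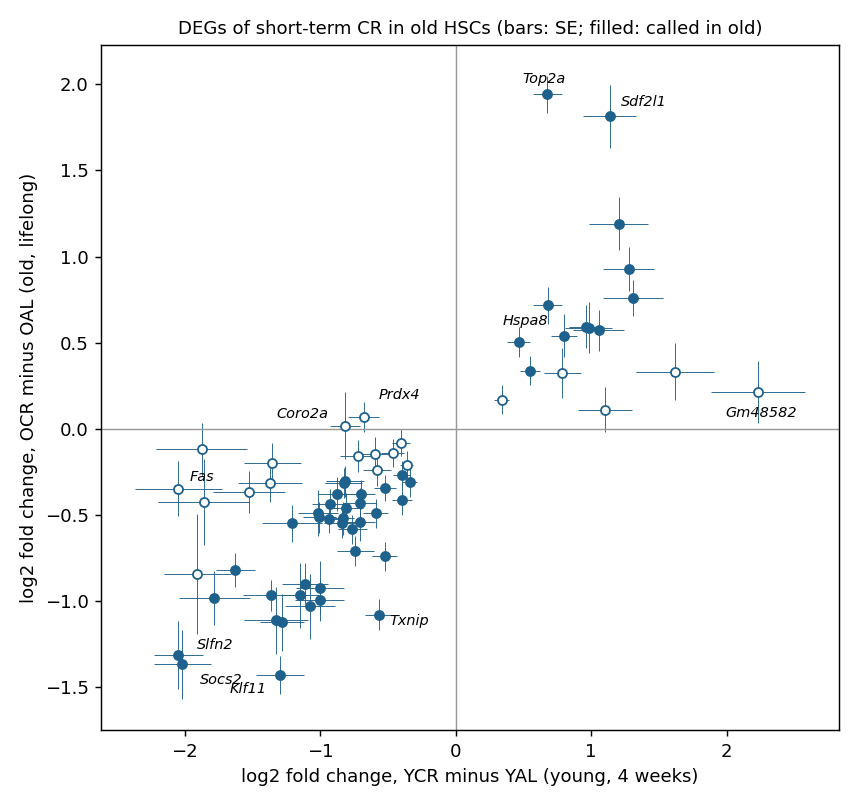
Log2 fold changes of the 68 DEGs in young HSCs (x axis, YCR minus YAL) and in old HSCs (y axis, OCR minus OAL), with SE bars and filled points for genes called in old HSCs. The 17 higher DEGs lie above 0 on the y axis, and of the 51 lower ones Coro2a and Prdx4 lie just above it, at 0.02 and 0.07.

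After 4 weeks of refeeding, mean levels lay between those of YAL and YCR for 56 of the 68 DEGs, and nearer to YAL than to YCR on the log scale for 60. This share has no test, since the genes were chosen for the distance between YAL and YCR. Nearer to YCR were Klf11, Palld, Ewsr1, Hsp90ab1, Abcg1, Taf4, Sdf2l1 and 6530402F18Rik. For 38 of the 51 lower DEGs and 7 of the 17 higher DEGs, the 4 YCRRF libraries lay outside the range of the 4 YCR libraries, on the side of YAL. Slfn2 was at 88.9, 103, 94.9 and 104 CPM, Gimap6 at 392, 428, 472 and 487 CPM, and Cish at 102, 130, 140 and 114 CPM in YCRRF. Each of these 12 values was above every YCR library. Serpina3g came back in part, to 813 ± 135 CPM (SD, n = 4) between 415 ± 79.0 in YCR and 1280 ± 215 in YAL. A group of 11 lower DEGs, Pim2 and Ifitm1 among them, had a mean above that of YAL, with Ifitm1 at 1590 CPM in YCRRF replicate 3 against 802 to 863 CPM in the other 3. Without that library, which stood apart in mitochondrial counts, the mean of Ifitm1 was 841 CPM, under its YAL mean of 869 CPM. The means of 54 DEGs then lay between YAL and YCR and 61 nearer to YAL, and for 44 of the lower and 14 of the higher DEGs the 3 YCRRF libraries lay outside the YCR range on the side of YAL. Nearer to YCR were then Serpina3f, Klf11, Palld, Ifi44, Gimap5, Abcg1 and 6530402F18Rik. Top2a had a mean below that of YAL with and without it, at 84.0, 13.2, 57.0 and 27.3 CPM, where the 4 libraries spread more widely than in either other group. Plasma cell transcripts were at 135 to 234 CPM in YCRRF.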

How the data were processed

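Counts of reads per gene were taken as the authors deposited them for each library (55376 gene symbols, 4 YAL, 4 YCR, 4 YCRRF, 4 OAL and 4 OCR libraries). Per the study's methods, total RNA of sorted HSCs was made into libraries, reads were trimmed with trim galore and cutadapt, aligned with STAR to mm10 and counted with featureCounts on GENCODE M22. The labels and the methods name different library kits, and strand and multimapping settings are not given in the sources used here. Total counts per library were 17194907 to 35676728 in YAL and YCR, which sets the precision of low genes.

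Samples were grouped by their titles. Genes past the expression filter of edgeR 4.0.16 (R 4.3.3) were scaled by TMM and tested with its quasi-likelihood test, with library sizes kept from all genes. Genes were called DEGs when the p adjusted by Benjamini-Hochberg was below 0.05 and the change exceeded 1.2-fold. SEs were obtained from the log2 change and its F statistic. Levels are CPM with TMM factors of the 12 young libraries (factors 0.875 to 1.03). The old comparison was fitted alone, and the interaction in 1 fit of 4 groups. YCRRF levels were described without a test. Tests were tried on simulated counts with known changes. Gene positions are from GENCODE M21 (mm10) and promoter windows from RefSeq (GRCm38.p6).

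Named by rule were up to 20 DEGs of the largest change in each direction (mean of at least 5 CPM, no overlap between the groups), DEGs in a gene list, DEGs whose call held whichever library was removed, the genes the study names, tested members of family lists of at most 16 genes, and up to 4 members of each list with the smallest unadjusted p (mean of at least 1 CPM). DEGs outside the rule, such as Tcp11l2 and Ewsr1, were named after their values were seen. The lists and the rule were chosen with earlier results of these data known. Alternatives were DESeq2 1.42.0, its size factors, TMM from genes with a mean of 5 CPM, other filters, the 3 young groups in 1 fit, the replicate number as a block, and each library left out in turn. Chosen after seeing the data were library sizes from filtered genes, YCR replicate 1 alone against YAL, and refed levels without YCRRF replicate 3. The chromatin data of the series and the other RNA-seq groups were not used here.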

Additional observations from a re-analysis of the deposited data

Results flagged for a closer look

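In groups of 4 libraries, a library was singled out where its gap to the nearest other library exceeded Dixon's critical value for that size, which chance gives in about 1 in 20 groups. Among the DEGs this held for Efna1 in YCR replicate 1 at 17.4 CPM against 22.1 to 22.5 CPM in the other 3 YCR libraries. Esam was at 195 CPM in YCR replicate 1 against 167 to 170 CPM in the others. Neo1 stood at 30.5 CPM in YCR replicate 3 against 14.0 to 16.0 CPM, and Abcg1 in the same library at 104 CPM against 116 to 117 CPM. Tcp11l2 was at 114 CPM in YCR replicate 4 against 137 to 141 CPM. I730030J21Rik was at 16.1 CPM in YAL replicate 2 against 23.6 to 25.0 CPM. Each of these libraries still lay outside the range of the other group. With all 68 DEGs searched, several flags of this kind are expected from chance alone. Summed B cell transcripts were 121 CPM in YAL replicate 1 against 67.6 to 75.1 CPM in the other YAL libraries, and summed endothelial and stromal transcripts 84.0 CPM in YCR replicate 3 against 103 to 107 CPM.

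The response of Top2a was larger in OCR against OAL than in YCR against YAL. The difference was 1.27 on the log2 scale by the edgeR interaction test (SE 0.164, adjusted p = 0.00526). Age, length of CR and source of the mice cannot be told apart in it. The level of Top2a was higher in 4 of 4 YCR libraries than in every YAL library.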

How the results depend on the processing

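The count of 68 DEGs became 454 (184 higher, 270 lower) with DESeq2, 368 (134 higher, 234 lower, 64 of the 68 among them) without the expression filter, 113 with a mean of at least 5 CPM, 30 with the 3 young groups in 1 fit and 6 to 27 with each library left out. YCR replicate 1 alone against YAL, with the lone library assumed to vary like YAL, gave 0 calls by edgeR and 1636 genes at an unadjusted p below 0.05, and each of the 68 kept its direction. Among the named genes recomputed in that fit, 5 that were not DEGs turned: Igha (-7.02), Jchain (-6.07), Igkc (-1.06), Ighm (-0.32) and Bhlhe40 (0.034). Igha and Jchain were at 0 in that library, so these fitted values are no bound.

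Replicate numbers were not taken to pair libraries: same-numbered YAL and YCR libraries deviated with correlations of -0.065, 0.05, -0.059 and -0.056. With the replicate number as a block, 7 genes were called (0 higher, 7 lower), each of them a DEG.

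DEGs called the same way in old HSCs numbered 48 of 68, against 210 of 454 with DESeq2, 171 of 368 without the filter, 7 of 7 with the replicate block, and 41 to 51 of 68 with each old library left out. DEGs whose response differed between old and young groups numbered 1, against 2 with DESeq2 size factors and 8 with a mean of at least 5 CPM. They numbered 0 by edgeR with the replicate block, and 1 to 4 with each library left out (4 without YAL replicate 1). The filters change the number of genes tested, and otherwise the cause was not tested. Depth limits genes of a few CPM, such as Gm48582.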
